A study of Mus musculus with 4 samples.

Results

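The genes described here are Pdk4, Aqp3, Plin2, Angptl4 and Vnn1, which are known to be raised by the nuclear receptor PPAR-alpha and are not enzymes of fatty acid oxidation, together with Ppara, the gene of the receptor. They were taken by symbol from the annotation of the array platform, which gave 9 probe sets for the 6 genes out of 22626 probe sets and 12393 genes in all. Transcripts of intestinal mucosa were measured on Affymetrix Mouse Expression Array 430A in male mice aged 10 weeks. The 4 groups were A/J high-fat, A/J low-fat, C57BL/6J high-fat and C57BL/6J low-fat, the inbred strain and the diet eaten for 2 weeks, and the labels name no allele or agent. Each group had 6 mice, and the RNA of 2 of them, of average body weight, was pooled onto 1 array. A/J is known to stay lean on dietary fat and C57BL/6J to become obese on it. With 1 array a group, a ratio of 2 arrays has no replicate check and no test, and precision is limited by how few arrays there were.

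PPAR-alpha is a nuclear receptor that binds fatty acids and their derivatives. It pairs with a retinoid X receptor on response elements in DNA and raises transcription of genes that take up, store and burn fat. Enterocytes, the absorptive cells of the small intestine, express the receptor and meet dietary fat at each meal.

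Signals were scaled so that the trimmed mean of each array was 500, and a signal under a floor of 100 was set to 100 before any ratio. Where 1 side of a ratio was under the floor, the ratio can only be larger than computed, and it is given as at least N-fold. A gene was represented by its probe set with the highest mean signal, and 8036 genes with a mean of at least 100 are called measured. All 6 genes were measured, as were 7 of their 9 probe sets. The 7 genes found for the enterocyte marker list were at 100 or more on every array. They summed to 126187 and 130529 in A/J on high and low fat, and to 135691 and 135273 in C57BL/6J. Fabp1 and Fabp2 of this list are also on the list of PPAR-alpha regulated genes outside oxidation used below. The listed Sis, sucrase-isomaltase, was matched through an older name to Pdgfb, a growth factor gene that is not an enterocyte marker. Pdgfb gave 114 to 194 of each sum, and sucrase-isomaltase itself was not found. In a bulk sample, fewer cells of a type and less RNA per cell cannot be told apart.

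The sequence just upstream of the start of transcription is shown for Pdk4 and Aqp3, which differed most between the arrays, and for Plin2. Of the 4 genes with an entry in the RefSeq promoter table (build GRCm38.p6, the C57BL/6J reference), only Plin2 held AGGTCA, the core site of such receptors, in its 250 bases before the start. Capitals mark matches on either strand to AGGTCA, to the TATA box core TATAAA, to the CCAAT box or to the GC box GGGCGG, and each line runs 5′ to 3′ along the gene, which for all 3 is the minus strand.
Pdk4, chr6:5496279-5496528: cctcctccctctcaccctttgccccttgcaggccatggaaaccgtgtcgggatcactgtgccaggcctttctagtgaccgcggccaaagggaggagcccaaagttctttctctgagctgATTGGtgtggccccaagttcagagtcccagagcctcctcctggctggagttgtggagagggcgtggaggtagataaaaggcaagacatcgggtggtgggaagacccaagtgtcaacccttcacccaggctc
Aqp3, chr4:41098184-41098433: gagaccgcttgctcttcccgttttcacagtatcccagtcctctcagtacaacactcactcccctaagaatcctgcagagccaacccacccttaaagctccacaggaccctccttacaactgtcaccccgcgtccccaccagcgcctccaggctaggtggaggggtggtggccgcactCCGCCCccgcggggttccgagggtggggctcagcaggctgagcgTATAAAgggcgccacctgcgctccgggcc
Plin2, chr4:86670060-86670309: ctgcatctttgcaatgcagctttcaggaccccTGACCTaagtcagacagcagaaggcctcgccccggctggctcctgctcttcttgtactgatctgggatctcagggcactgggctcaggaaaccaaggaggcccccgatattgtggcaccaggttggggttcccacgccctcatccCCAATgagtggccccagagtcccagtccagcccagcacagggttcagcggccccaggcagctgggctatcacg

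The AGGTCA of Plin2 lay on the opposite strand at position -218 from the start. This motif is found on either strand in 14.0% of the 32851 promoter windows of this length. The full element bound by PPAR-alpha with its partner, 2 copies of AGGTCA as a direct repeat with 1 base between them, was in 0 of the 4 windows and in 0.0335% of all windows. With any base allowed at the 4th place of each copy it was in 0 of the 4 and in 0.338% of all. Aqp3 had TATAAA at position -29, a motif held by 12.4% of windows, and a GGGCGG box on the opposite strand at -73. Pdk4 held a CCAAT box on the opposite strand at -131, and Plin2 held one at -73, against 33.8% of all windows. Ppara held only GGGCGG, at -216 and -101, and 32.7% of windows do. CACGTG, an E-box, was in 0 of the 4 windows and 6.02% of all. These matches describe letters within these windows and no more. The motifs other than the receptor's were added after the sequences were seen.

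Ppara itself was higher in A/J than in C57BL/6J. Its scaled signal was 541 on A/J high-fat and 387 on A/J low-fat, against 293 on C57BL/6J high-fat and 203 on C57BL/6J low-fat. Both A/J arrays lay above both C57BL/6J arrays, and in each strain the high-fat array was the higher one. The difference between A/J and C57BL/6J was 1.85-fold on high fat and 1.91-fold on low fat. Between high and low fat it was 1.40-fold in A/J and 1.45-fold in C57BL/6J, both under the 1.5-fold used for counting.

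Pdk4 encodes a kinase that phosphorylates and restrains pyruvate dehydrogenase, so that less carbohydrate carbon enters the mitochondrial acetyl-CoA pool. Its signal was 1331 and 409 in A/J on high and low fat, and 483 and 67.3 in C57BL/6J on high and low fat, the last under the floor. The high-fat array was the higher one in both strains, and A/J was higher than C57BL/6J on both diets. The high-fat to low-fat ratio was 3.25-fold in A/J and at least 4.83-fold in C57BL/6J. A/J exceeded C57BL/6J 2.76-fold on high fat and at least 4.09-fold on low fat.

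Aqp3 encodes an aquaglyceroporin, a membrane channel for water and glycerol, and has 3 probe sets made to the same sequence record, so they are not separate evidence. Probe set 1422007_at gave 1059.5 and 419.7 in A/J on high and low fat, and 280.4 and 35.1 in C57BL/6J on high and low fat. Probe set 1450460_at gave 704, 339.8, 227 and 69.5 in the same order. The C57BL/6J low-fat signal lay under the floor in both. The third, 1422008_a_at, was above the floor only on A/J high-fat, at 155. It gave 39.4 on A/J low-fat and 64.5 and 17.2 in C57BL/6J on high and low fat, and did not pass the filter on the mean.

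By the 2 measured Aqp3 probe sets, the high-fat to low-fat ratio was 2.52-fold and 2.07-fold in A/J, and at least 2.80-fold and at least 2.27-fold in C57BL/6J. A/J exceeded C57BL/6J 3.78-fold and 3.11-fold on high fat, and at least 4.20-fold and at least 3.40-fold on low fat. Pdk4 and Aqp3 were the genes of this group with at least a 2-fold difference in all 4 comparisons of arrays.

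**Figure D1:**
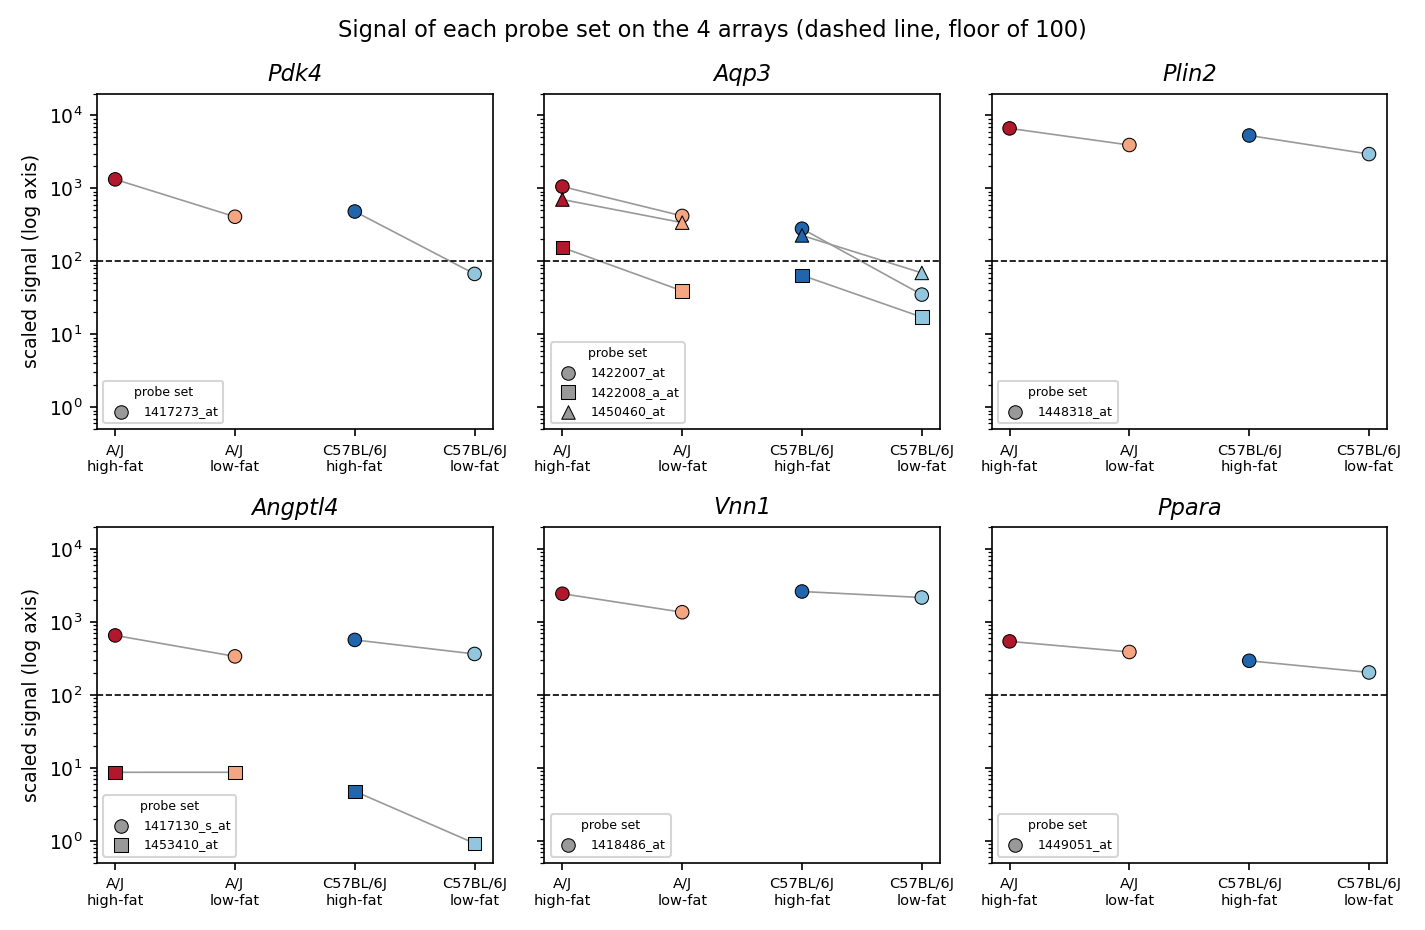
Scaled signal (log axis) of every probe set of the 6 genes on the 4 arrays, with 1 point per array, marker shape for the probe set, thin lines joining the diets of a strain and a dashed line at the floor of 100. Pdk4 and the 2 measured Aqp3 probe sets fall below the floor on C57BL/6J low-fat only, while Plin2, Vnn1 and the brighter Angptl4 probe set stay well above it on all 4 arrays.

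Plin2 encodes perilipin 2, a coat protein of lipid droplets. The signal was 6650.1 and 3935 in A/J on high and low fat, and 5315 and 2956 in C57BL/6J on high and low fat. Both high-fat arrays lay above both low-fat arrays. The high-fat to low-fat ratio was 1.69-fold in A/J and 1.80-fold in C57BL/6J. A/J exceeded C57BL/6J by less than 1.5-fold, 1.25-fold on high fat and 1.33-fold on low fat.

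Angptl4 encodes a secreted inhibitor of lipoprotein lipase, the enzyme that frees fatty acids from circulating triglyceride. Probe set 1417130_s_at gave 653 and 337 in A/J on high and low fat, and 567 and 364 in C57BL/6J on high and low fat. The 2 high-fat arrays were the higher ones here too, at 1.94-fold over low-fat in A/J and 1.56-fold in C57BL/6J, and the strains differed by 1.15-fold on high fat. On low fat A/J was 1.08-fold lower than C57BL/6J. The name of this probe set marks it as possibly shared between transcripts. The other Angptl4 probe set, 1453410_at, was under 10 on all 4 arrays and gave no ratio.

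Vnn1 encodes a pantetheinase, which splits pantetheine into the vitamin pantothenic acid and cysteamine. The signal was 2435 and 1358 in A/J on high and low fat, and 2612 and 2159 in C57BL/6J on high and low fat. A/J on low fat stood below the other 3 arrays. High fat exceeded low fat 1.79-fold in A/J and 1.21-fold in C57BL/6J. A/J was 1.59-fold lower than C57BL/6J on low fat and 1.07-fold lower on high fat.

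The comparison of the high-fat with the low-fat diet within a strain asked how the mucosa responded to dietary fat. In A/J, high fat exceeded low fat by 1.5-fold or more in 5 of the 6 genes and was below it by that much in 0, against 4.99% and 4.7% of the 8036 measured genes. In C57BL/6J these counts were 4 and 0 of the 6, against 5.13% and 4.63% of measured genes. With the C57BL/6J signals left unscaled and the same floor, Plin2 was the 1 gene of the 6 to pass. The 4 genes Pdk4, Aqp3, Plin2 and Angptl4 passed 1.5-fold in both strains, which 1.16% of measured genes did. In A/J the median log2 ratio of the 6 genes was 0.90, against 0.01 over all measured genes. In C57BL/6J it was 0.74, against -0.01. At least 2-fold, 2 of the 6 were higher in each strain, against 0.796% of genes in A/J and 1.02% in C57BL/6J.

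**Figure D2:**
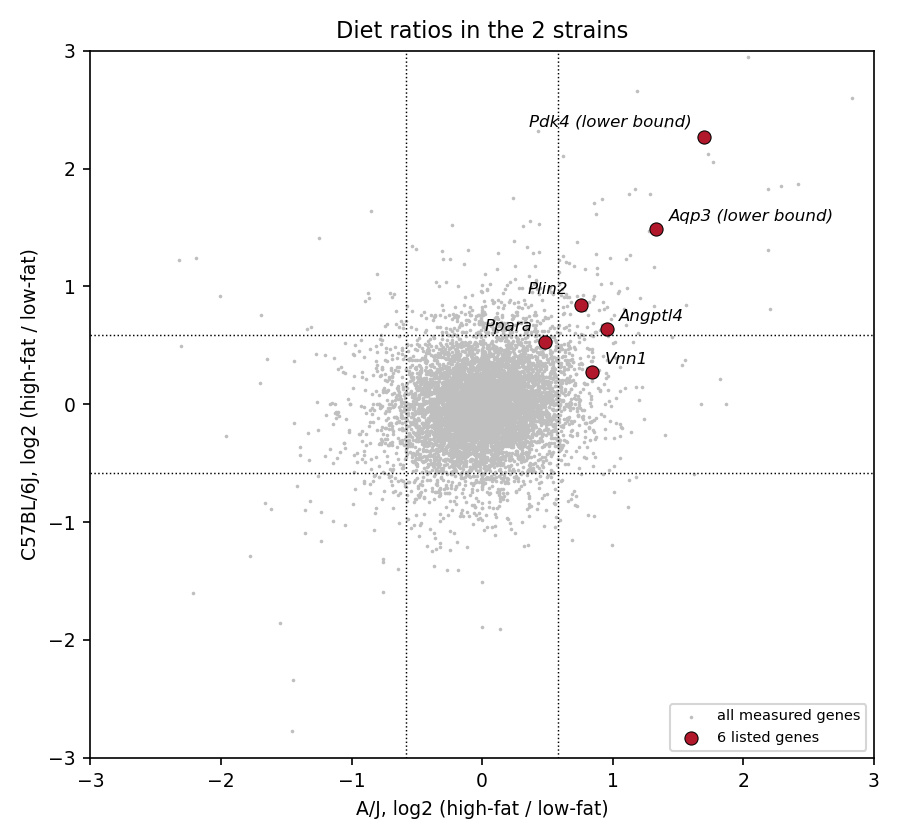
Log2 ratio of high-fat to low-fat signal in A/J (horizontal axis) and C57BL/6J (vertical axis) for all measured genes (grey points, 18 of which lie outside the axes) and the 6 genes (red points), with dotted lines at 1.5-fold. All 6 genes lie to the upper right of the origin, Pdk4 and Aqp3 farthest out, and their C57BL/6J values are lower bounds.

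The diet effect over both strains was tested with limma on the log2 scale across 13431 measured probe sets, in a model of diet plus strain. This fit has 1 residual degree of freedom. Its error joins how far the strains differ in their diet ratio to a prior variance of 0.0413, drawn from all tested probe sets. The prior has 7.3 degrees of freedom and outweighs the 1 residual degree of freedom. No spread among mice or pools of a group enters the p-values. The estimates and SEs for Pdk4 and Aqp3 use the floor in place of their C57BL/6J low-fat signal and move with it. Pdk4 rose on high fat by 1.99 (SE 0.215, limma adjusted p = 0.0145) and ranked 11 of the 13431 by size among increases. Aqp3 rose by 1.41 in probe set 1422007_at (SE 0.192, limma adjusted p = 0.0481, rank 27). The other measured Aqp3 probe set had an estimate of 1.12 (SE 0.192, limma adjusted p = 0.141). Both of these genes were higher on 2 of 2 high-fat arrays than on the low-fat array of the same strain. Of the 7 measured probe sets 2 rose and 0 fell, against 0.134% and 0.0372% of all probe sets tested. As above, this count is not independent of how the genes were chosen.

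The other 4 genes did not pass the test. The diet estimate was 0.80 for Plin2 (SE 0.191, limma adjusted p = 0.289) and 0.80 for Angptl4 (SE 0.198, limma adjusted p = 0.327). It was 0.56 for Vnn1 (SE 0.215, limma adjusted p = 0.574) and 0.51 for Ppara (SE 0.191, limma adjusted p = 0.561). All 4 were higher on both high-fat arrays than on the low-fat array of their strain, and a p that misses the threshold does not show that they were alike on the diets.

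The calls for Pdk4 and Aqp3 depended on the setting. Both were lost with a floor of 50 (limma adjusted p = 0.18 for Pdk4 and 0.27 for Aqp3) and with a floor of 200 (0.461 and 0.727). Over 8 alternatives that kept both terms, Pdk4 was called in 4, with limma adjusted p-values of 0.000652 to 0.688, and Aqp3 in 3, with 0.00485 to 0.727. The direction did not change, and the estimates lay between 1.08 and 2.27 for Pdk4 and between 0.65 and 1.91 for Aqp3. Without the C57BL/6J low-fat array, in a fit of diet alone, they were 0.97 and 0.38. That fit sets the high-fat arrays of both strains against A/J low-fat, so these values also hold part of the strain difference. Within A/J alone the log2 diet ratio was 1.70 for Pdk4 and 1.34 for Aqp3. With diet as the only term, neither gene passed (limma adjusted p = 1 for each).

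**Figure D3:**
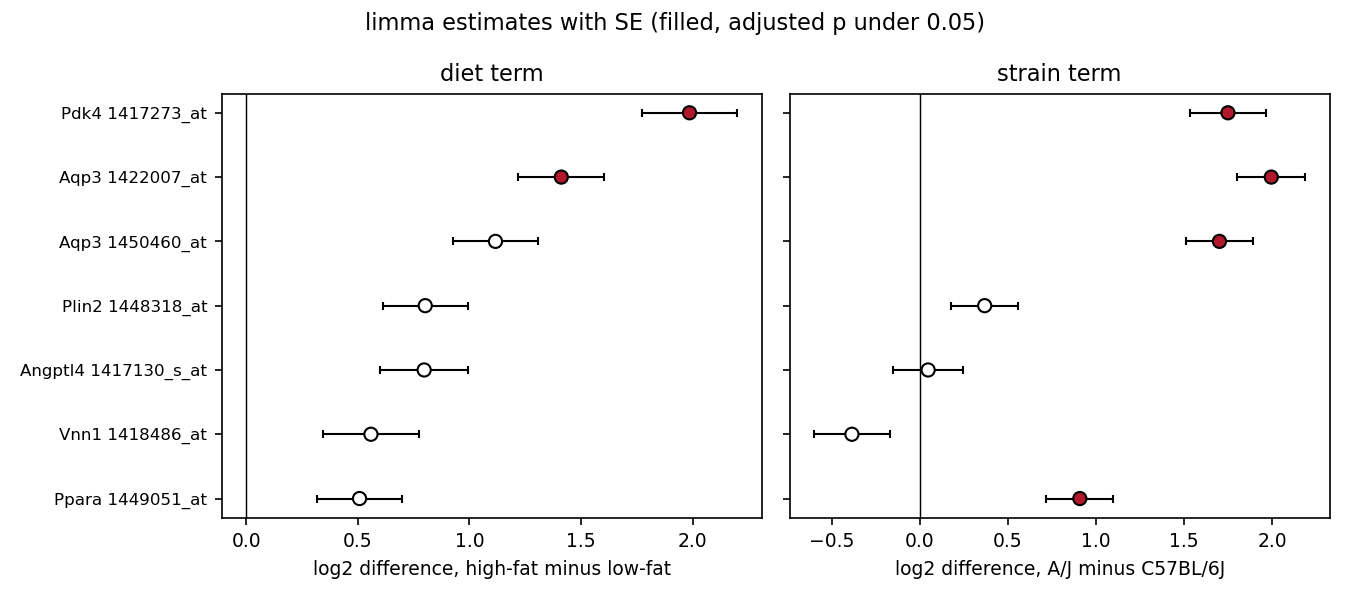
Estimates from the limma fit over all 4 arrays for the 7 measured probe sets, as log2 differences with SE bars, for the diet term (left) and the strain term (right), filled where the adjusted p was under 0.05. The diet estimates run between 0.51 and 1.99 and are all above 0, while the strain estimates run between -0.39 for Vnn1 and 1.99 for Aqp3.

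The comparison of A/J with C57BL/6J on the same diet asked how the strains differed. On high fat, A/J exceeded C57BL/6J by 1.5-fold or more in Pdk4, Aqp3 and Ppara, 3 of the 6 genes, and was below it by that much in 0, against 8.37% and 6.88% of measured genes. On low fat Pdk4, Aqp3 and Ppara were again higher and Vnn1 was lower, against 10.9% and 9.23%. At 2-fold, Pdk4 and Aqp3 were higher in A/J, against 1.93% of genes on high fat and 3.0% on low fat. By limma, with the strain term of the same fit, Aqp3 was higher in A/J by 1.99 (SE 0.192, limma adjusted p = 0.00103) and by 1.70 in its other measured probe set (limma adjusted p = 0.00224). Pdk4 was higher by 1.75 (SE 0.215, limma adjusted p = 0.00337, rank 62) and Ppara by 0.91 (SE 0.191, limma adjusted p = 0.0351). Each was higher in A/J on 2 of 2 diets. In all, 4 of the 7 probe sets were higher and 0 lower, against 2.37% and 2.49% of probe sets tested. The strain counts too are not independent of how the genes were chosen.

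Plin2, Angptl4 and Vnn1 did not pass, with strain estimates of 0.37 (SE 0.191, limma adjusted p = 0.329), 0.05 (SE 0.198, limma adjusted p = 0.919) and -0.39 (SE 0.215, limma adjusted p = 0.361). Across the 8 alternatives with both terms, the strain call held in 6 for Pdk4, in 6 for the brighter Aqp3 probe set and in 5 for Ppara. The highest limma adjusted p-values among these alternatives were 0.497, 0.381 and 0.27 in that order of genes. With strain as the only term they were 0.347, 0.179 and 0.172. The strain estimates over the 8 alternatives lay between 1.17 and 2.03 for Pdk4 and between 1.27 and 2.49 for the brighter Aqp3 probe set. Without the C57BL/6J low-fat array, in a fit of strain alone, they were 0.61 and 1.25. That fit sets both A/J arrays against C57BL/6J high-fat, so these values also hold part of the diet difference. On high fat alone the log2 strain ratio was 1.46 for Pdk4 and 1.92 for Aqp3. Marker sums higher in A/J on both diets were those of the proximal small intestine, at 18353 and 20901 in A/J on high and low fat against 15598 and 15336 in C57BL/6J, and those of smooth muscle, at 1962 and 2835 against 1718 and 1741. Lct, the lactase gene, made up most of the proximal sum. Sums lower in A/J on both diets were those of enterocyte and T cell markers, but their single markers differed in direction. On high fat Cd3d, Cd3e, Cd3g, Cd8a and Nkg7 were higher in A/J. Gzma, at 907 against 3352, Gzmb and Ccl5 were lower. On low fat every T cell marker was lower in A/J. Of the enterocyte list, Fabp2 and Anpep were higher in A/J on both diets, and Vil1, Fabp1 and Apoa1 were lower. Apoa4 and Pdgfb were lower in A/J on high fat only. The exocrine pancreas sum was lower in A/J on high fat, at 2632 against 149184, and nearly equal on low fat, at 94488 against 94601. The part of these markers in the strain differences was not tested.

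Across strain and diet, C57BL/6J on high fat stood at 1.18-fold the A/J low-fat level for Pdk4 and at 0.758-fold for Ppara. It stood at 0.668-fold for Aqp3, but at 1.35-fold for Plin2, 1.68-fold for Angptl4 and 1.92-fold for Vnn1. These ratios mix strain and diet and have no test.

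Whether the diet response itself differed between the strains was not tested, since each response rests on 2 arrays. The log2 diet ratio in C57BL/6J minus that in A/J was at least 0.57 for Pdk4, at least 0.15 for Aqp3, 0.09 for Plin2 and 0.05 for Ppara. It was -0.31 for Angptl4 and -0.57 for Vnn1. For Pdk4 and Aqp3 the C57BL/6J low-fat array, the one under the floor, also had the highest signal for 18S ribosomal RNA, 11010 in the 5′ probe set. That probe set gave 1675 on C57BL/6J high-fat, and 84.4 and 218 in A/J on high and low fat. In A/J, Pdk4 and Aqp3 were 3.25-fold and 2.52-fold higher on high fat, as given above. The part of the 18S signal in the values of both genes, in either strain, was not tested.

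Of 11 measured relatives, partners and co-regulators of Ppara, 2 passed 1.5-fold upward on high fat and 0 downward, in A/J as in C57BL/6J, with medians of -0.02 and 0.17 on the log2 scale. By limma 0 rose and 0 fell with diet. Over all measured genes, 4.99% in A/J and 5.13% in C57BL/6J passed upward, and 4.7% and 4.63% downward. Of all probe sets tested by limma, 0.134% rose with diet and 0.0372% fell, and 2.37% were higher and 2.49% lower in A/J. These shares stand beside the counts of this and every list below, and the lists too were chosen with earlier results known. The list counts take 1 probe set per gene, unlike the limma shares. With 1 probe set per gene tested, 34 of 8036 rose with diet and 15 fell, and 308 were higher and 296 lower in A/J. Rxrb, a retinoid X receptor that pairs with PPAR-alpha, had signals of 599 and 383 on high and low fat in A/J and 552 and 349.95 in C57BL/6J. Pparg, the adipogenic relative, had 190.04 and 119 in A/J and 182 and 49.8 in C57BL/6J. Ppargc1a, a coactivator of mitochondrial genes, ran the other way, at 1664 on high fat against 2338 on low fat in A/J and 1125 against 1551 in C57BL/6J. One of its 4 other measured probe sets had a C57BL/6J log2 ratio of 0.12 in place of -0.46.

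Oxidation enzymes known as PPAR-alpha targets were the list with the most members higher on high fat, and also the list with the most measured genes. Of 20 measured, 9 passed 1.5-fold upward in A/J and 8 in C57BL/6J, with 0 downward in either, with medians of 0.57 and 0.51. By limma 0 rose and 0 fell with diet, although 19 of the 20 estimates were above 0, and 4 were higher in A/J than in C57BL/6J. The peroxisomal thiolase Acaa1b had 4741 and 2212 in A/J on high and low fat and 2522 and 1074 in C57BL/6J (diet estimate 1.17, limma adjusted p = 0.112). Acadl, a mitochondrial acyl-CoA dehydrogenase, was 1.54-fold higher on high fat in A/J and 2.39-fold in C57BL/6J. Hsd17b4, the peroxisomal bifunctional enzyme, was 1.88-fold and 2.03-fold higher. The thioesterase Acot1 had 274 and 38.9 in A/J and 148 and 72.3 in C57BL/6J, with both low-fat signals under the floor.

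Among 12 measured PPAR-alpha regulated genes outside oxidation, 4 in each strain passed 1.5-fold upward on high fat and 0 downward, with medians of 0.24 in A/J and 0.30 in C57BL/6J. By limma 2 of the 12 rose. Me1, the cytosolic malic enzyme, rose by 2.71 (SE 0.195, limma adjusted p = 0.00652). Cd36, a fatty acid transporter, rose by 1.37 (SE 0.194, limma adjusted p = 0.0499) and was also higher in A/J, by 3.09 (limma adjusted p = 0.000155). Over the 8 alternatives with both terms the diet call held in 5 for Me1, with limma adjusted p-values up to 0.482, and in 3 for Cd36, with up to 0.558. Slc27a2, a very long-chain acyl-CoA synthetase, had ratios of 1.66-fold and 2.59-fold, and Retsat, retinol saturase, 1.58-fold and 1.88-fold, in A/J and C57BL/6J. The second measured Me1 probe set gave a strain ratio on high fat of -0.54 in place of 1.32 on the log2 scale.

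Within the kinase family of Pdk4 the diet ratios ran in both directions. Pdk2, another pyruvate dehydrogenase kinase, had 413 on high fat against 723 on low fat in A/J and 494 against 675 in C57BL/6J (diet estimate -0.63, limma adjusted p = 0.452). Pdk3 had 225 and 164 in A/J and 338 and 268 in C57BL/6J on high and low fat. Pdk1, named after its values were seen, was lower in A/J, with 129 and 128 on high and low fat against 497 and 617 in C57BL/6J, a limma strain estimate of -2.11 (SE 0.199, adjusted p = 0.000965), called in 6 of the 8 alternatives. Its other measured probe set had 27.5 and 28.8 in A/J, both under the floor, and 176 and 219.6 in C57BL/6J. Of 7 measured genes of the pyruvate dehydrogenase list besides Pdk4, 0 passed 1.5-fold upward in either strain, and Pdk2 passed it downward in A/J. The list's median was -0.03 for A/J and -0.19 for C57BL/6J.

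In the list of aquaporins and glycerol handling, 2 of 5 measured genes besides Aqp3 passed 1.5-fold upward in each strain and 0 downward, with 0 calls by limma for diet and medians of 0.50 in A/J and 0.03 in C57BL/6J. Aqp7, another glycerol channel, had 494 and 226 in A/J on high and low fat, and 345 and 65.8 in C57BL/6J (diet estimate 1.46, with the C57BL/6J low-fat signal set to the floor, limma adjusted p = 0.0808). Its other measured probe set had 179 and 103 in A/J. In C57BL/6J that probe set had 90.0 and 28.3, both under the floor, and gave no diet ratio. Aqp1, a water channel also found in endothelium, was higher in A/J by 1.83 (SE 0.195, limma adjusted p = 0.0018), with 2327 and 1642 in A/J and 708 and 426 in C57BL/6J, and was called in 6 of the 8 alternatives. Aqp4 had 276 and 140.3 in A/J but 163 and 159.9 in C57BL/6J.

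Beside Plin2, 1 of 8 measured genes of lipid droplet turnover passed 1.5-fold upward in A/J and 2 in C57BL/6J, with 0 downward, 0 calls by limma and medians of 0.12 and 0.29. The droplet protein Cidec had 1037 and 766 in A/J and 1060.02 and 553 in C57BL/6J on high and low fat. G0s2, an inhibitor of the triglyceride lipase ATGL, had 288 and 63.9 in A/J and 126 and 39.05 in C57BL/6J, and both low-fat signals were under the floor. Abhd5, the activator of that lipase, was 1.37-fold and 1.53-fold higher in A/J and C57BL/6J, but its other measured probe set had a log2 ratio of -0.63 in A/J.

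Lpl, the lipase that Angptl4 inhibits, had 389.9 and 180.5 in A/J on high and low fat and 218 and 110.1 in C57BL/6J, or 2.16-fold and 1.98-fold (diet estimate 1.05, limma adjusted p = 0.162). It was the 1 gene of 6 measured besides Angptl4 in the lipoprotein lipase list to pass 1.5-fold in either strain. Apoc2, the cofactor of the lipase, was 1.48-fold and 1.17-fold higher in A/J and C57BL/6J. Apoc3, an inhibitor of it, was 1.46-fold and 1.33-fold lower. Of 5 measured genes of coenzyme A synthesis besides Vnn1, 0 passed 1.5-fold in A/J and 1 in C57BL/6J. That gene was Pank3, a pantothenate kinase, with 4599 and 3218 in A/J and 4575 and 2326 in C57BL/6J. Pank1 was 1.04-fold lower on high fat in A/J and 1.43-fold lower in C57BL/6J, against log2 ratios of 0.41 and 0.32 in its other measured probe set. Ppcs, the next enzyme of the pathway, was 1.35-fold and 1.11-fold higher.

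**Figure D4:**
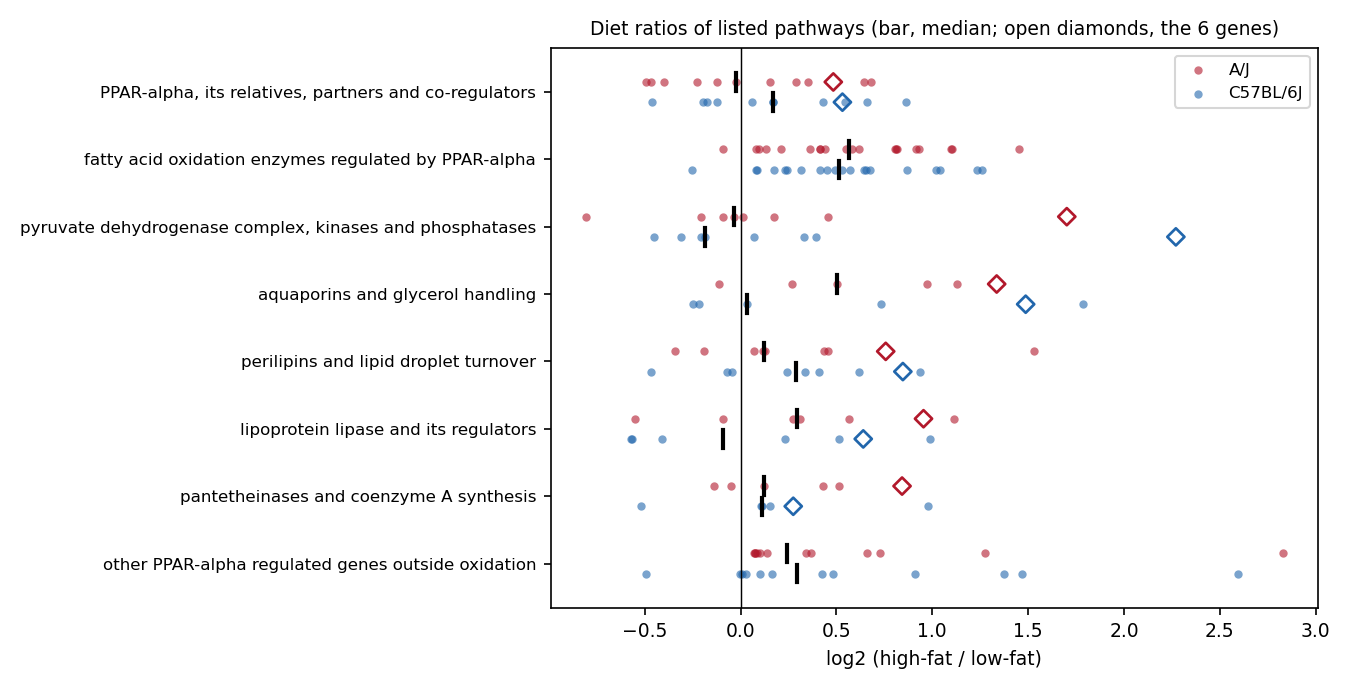
Log2 ratio of high-fat to low-fat signal (horizontal axis) for each measured gene of 8 lists, in A/J (red) and C57BL/6J (blue), with a black bar at the median of the genes other than the 6 and open diamonds for the 6 genes. Pdk4 lies beyond every other gene of its list, and the oxidation enzymes have medians of 0.57 and 0.51, the highest of the 8 lists in both strains.

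Genes with the most alike pattern were sought by the Euclidean distance between centred log2 signals over the 4 arrays, among 6221 genes with a mean signal of at least 200. With 4 arrays this is a description of 4 points. Nearest to Pdk4 were the carboxylesterase Ces1f at a distance of 0.62, Aqp3 at 0.66 and the small GTPase Rab30 at 0.71. Nearest to Aqp3 were Bbox1, the last enzyme of carnitine synthesis, at 0.37, Dipk2a at 0.39 and the alcohol dehydrogenase Adh4 at 0.46. Bbox1 had 2677 and 1478 in A/J on high and low fat, and 885 and 272 in C57BL/6J. For Plin2 they were the arylacetamide deacetylase Aadac at 0.06, Ccser2 at 0.09 and Gramd4 at 0.14, and Aadac had 5460.5 and 3201 in A/J and 4395 and 2311 in C57BL/6J. For Ppara they were the peroxisomal thioesterase Acot4 at 0.11, the actin-severing protein Scin at 0.12 and Hacl1, a peroxisomal lyase, at 0.13. Angptl4 and Vnn1 spanned under 1 log2 unit over the arrays and were not searched.

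Markers of other cell types were measured beside these genes. Of 7 adipocyte markers found, Adipoq and Lep were under 100 on all 4 arrays, and the summed signal was 2624 and 2346 in A/J on high and low fat and 2788 and 2127 in C57BL/6J. That sum was higher on high fat in both strains, as were 5 of the 6 genes by 1.5-fold in A/J and 4 in C57BL/6J, and its part in the result was not tested. The list holds Cidec, which is also a droplet protein of other cells and made up most of the rise in the sum. Cidec had 1037 and 766 in A/J on high and low fat and 1060 and 553 in C57BL/6J. Only Cidec and Car3 of this list were higher on high fat in both strains. Fabp4 was lower on high fat in A/J, and Lipe and Retn were lower in C57BL/6J. Exocrine pancreas markers summed to 2632 and 94488 in A/J on high and low fat, and to 149184 and 94601 in C57BL/6J on high and low fat, opposite in direction with diet in the strains. T cell markers summed to 4236 and 3031 in A/J on high and low fat and to 7142 and 12966 in C57BL/6J. Macrophage markers, also higher on high fat in both strains, summed to 9236 and 7814 in A/J and to 8188 and 7948 in C57BL/6J, and smooth muscle markers, given above, were lower on high fat in both. Of the markers of keratinised or gastric surface epithelium, Gast, Krt5, Krt14 and Krt13 were under 100 on all arrays, and the sum was 1310.1 and 2765 in A/J and 8287 and 1523 in C57BL/6J. Distal markers summed to 6618 and 4338 in A/J and to 4698 and 5354 in C57BL/6J, with Fabp6, Slc10a2, Car1 and Hoxb9 under 100 on all arrays. The part of these marker signals in the values of the 6 genes was not tested.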

How the data were processed

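RNA from intestinal mucosa was hybridised to 4 arrays, 1 for each combination of strain and diet. Per the labels' protocols, the authors computed the signals with Microarray Suite 5.0, which sets perfect match against mismatch probes. The deposited values are linear intensities, 1 per probe set, and the sources used here name no common scaling target. The 64 control probe sets among 22690 served only for the 18S signals. Of the remaining 22626, the platform annotation gives 1 gene for 20380, several for 691 and none for 1555. RefSeq held the gene number of 20351 and left every symbol as it was.

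Arrays were scaled by factors (2.80, 2.72, 3.41 and 3.08 for A/J high-fat, A/J low-fat, C57BL/6J high-fat and C57BL/6J low-fat) to a mean of 500 after trimming 2% at each end. Signals under 100 were set to 100 and log2 was taken. The trimmed means as deposited were 178, 184, 147 and 163 in the same order, and 58.6% to 60.3% of probe sets had a scaled signal of at least 100. Ratios of 2 arrays were counted at 1.5-fold. Effects of diet and strain were fitted by limma 3.58.1 (R 4.3.3) on the 13431 probe sets with a mean signal of at least 100, with Benjamini-Hochberg adjustment and a threshold of 0.05. All 4 arrays entered the fit, with 1 residual degree of freedom and a prior of 7.3 degrees of freedom. The fit was tested on simulated data of this design, where the share of false calls was often above the nominal one, so adjusted p-values near the threshold are approximate.

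Pathway genes were 116 on 8 lists, 95 of them found on the array, and 65 of 71 marker genes on 9 lists were found. The 65 include Pdgfb, matched in place of the listed Sis. The members and lists were chosen with earlier results of these data known. All 6 genes were named, with up to 4 genes of each list by the size of the mean diet ratio and the 3 genes of most alike pattern. Promoter sequences are those of RefSeq, GRCm38.p6. Promoters of Angptl4 and Vnn1 were not analysed here. The alternatives were quantile normalization, no scaling, floors of 50 and 200, a pseudocount of 50, no filter on the mean, an intensity trend, 1 probe set per gene, 1 term alone, each array left out, a 2-fold threshold, the mean of all measured probe sets, and no probe sets marked as shared. The other steps ran in Python 3.11.15 with numpy 2.4.6, pandas 2.3.3 and matplotlib 3.10.9.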

Additional observations from a re-analysis of the deposited data

How the results depend on the processing

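The diet and strain ratios of the 6 genes kept their direction wherever they passed 1.5-fold and were above the floor, while the limma calls moved with the setting. By limma, 23 probe sets changed with diet and 653 with strain. For diet the number was 13 with quantile normalization, 40 without scaling, 1 with a floor of 50, 38 with a pseudocount of 50, 58 with an intensity trend and 49 with 1 probe set per gene. It was 0 with a floor of 200, without the filter on the mean and with diet alone, where limma gave 1331, 1562 and 341 probe sets at an unadjusted p under 0.05. For strain the number was 1452 without scaling, 404 with a floor of 50, 250 with strain alone, and 0 with a floor of 200 or without the filter, with 2083 and 2272 at the unadjusted threshold. Without scaling, 52.5% of the diet calls were increases against 78.3% with it, and 82.5% of the strain calls were higher in A/J against 48.7%. The median log2 ratio of all measured genes then stood at -0.16 for diet in C57BL/6J, and at 0.33 and 0.20 for A/J over C57BL/6J on high and low fat. The sign of the Angptl4 strain ratio on low fat (0.07 without scaling) and of the Vnn1 strain ratio on high fat (0.18) also changed with it. Leaving out each array in turn, with 1 term, gave 0 to 25 diet calls and 0 to 0 strain calls, against 180 to 447 and 1299 to 1703 at the unadjusted threshold. The 25 came without C57BL/6J high-fat, and all were lower on high fat. The lone array of a group is there assumed to vary like the others. With diet, 5 of the 6 genes passed 1.5-fold in A/J, and 4 did in C57BL/6J. At 2-fold 2 passed in each strain, and without scaling 1 passed 1.5-fold in C57BL/6J. Between the strains on low fat, 4 passed 1.5-fold and 2 passed 2-fold. Among results for single genes, 876 values under the alternatives stayed on their side of the threshold, 119 lost a limma call, 19 gained one, and 16 ratios of the 6 genes crossed 1.5-fold, changed sign below it or fell to the floor. Of 16 limma estimates called for named genes, 2 reversed, those of Cd36 for diet (-0.12 without A/J high-fat and -0.22 without C57BL/6J low-fat, in a range up to 2.96) and Me1 for strain (-0.21 and -0.10 without the same arrays, up to 2.62), each in the fits with 1 term. Of 52 not called, 20 changed sign when an array was left out, among them the strain estimates of Angptl4 (to -0.43), Plin2 (to -0.06) and Vnn1 (to 0.04), and 4 did under other alternatives. With an array left out and 1 term fitted, the diets are unevenly spread over the strains. The diet estimate then also holds part of the strain difference, and the strain estimate part of the diet difference. The cause of the other shifts was not tested. No paired analysis was possible because each group had 1 array and no replicate numbers; the diet plus strain fit already compares the diets within each strain. Signals under the floor, as for Pdk4 and Aqp3 in C57BL/6J on low fat, limit those ratios to bounds.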

Other observations

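Car4, a membrane-anchored carbonic anhydrase, was taken after its values were seen from the markers of the distal small intestine and colon. It was highest on A/J high-fat and lowest on C57BL/6J low-fat, as Aqp3 was, with nearly equal signals on the other two arrays. Its scaled signal was 1539 and 837 in A/J on high and low fat, and 833 and 375 in C57BL/6J. Slc51a, the other measured marker of that list, had 4960 and 3472 in A/J on high and low fat, and 3834 and 4911 in C57BL/6J. It was thus lowest on A/J low-fat. The part of these regional markers in the values of the 6 genes was not tested. Lipe, hormone-sensitive lipase, was nearly flat, with 1053 and 965 in A/J on high and low fat and 1172 and 1209 in C57BL/6J. Fabp4, a fatty acid binding protein of adipocytes and endothelium, had 242 and 404 in A/J on high and low fat, and 308 and 195 in C57BL/6J. Of 80 measured genes on the pathway lists, 0 were at least 1.5-fold higher with diet in one strain and as much lower in the other.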
